A study of Mus musculus with 20 samples.

Results

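Open chromatin of cardiac fibroblasts sorted 3 days after myocardial infarction was compared with that of fibroblasts from uninjured hearts, by assay for transposase-accessible chromatin (ATAC-seq), in which the Tn5 transposase cuts DNA that is not packed away. The members are genomic regions, made by merging overlapping peaks of 4 peak lists, 2 from day 3 and 2 from uninjured hearts. A region was called gained when both day 3 lists and neither uninjured list had a peak in it, and lost in the reverse case. Of 123608 regions, 25199 were gained (20.4%), 1654 were lost (1.34%) and 50309 (40.7%) had a peak in all 4 lists. Because the day 3 lists were longer, the same rule was applied a second time with the 63901 strongest peaks of each list. It then gave 8973 gained (10.7%) and 6057 lost (7.24%) of 83673 regions.

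The series relates accessible chromatin to gene expression in the fibroblasts of the injured mouse heart. It holds 20 libraries, 10 of ATAC-seq and 10 of RNA-seq, with 2 of each from uninjured hearts and from hearts at 3 days, 7 days, 2 weeks and 4 weeks after infarction. All groups, the uninjured one included, carried a tamoxifen-inducible MerCreMer recombinase and an eGFP label that trace the Tcf21 lineage, and received tamoxifen in corn oil by intraperitoneal injection, at 75 mg/kg per day for 5 days. Hearts were digested with collagenase D and dispase II, and eGFP+ cells were sorted with a gate set on wild-type (WT) eGFP- cells. RNA libraries were made from 10000 sorted cells. The labels used here give neither the strain, sex and age of the mice, nor the alleles behind the tracing, nor whether uninjured hearts had a sham operation. Nor do they state whether each library is a mouse of its own, so a p-value here measures the spread between these libraries, which may be technical. The population is bounded by the cells in which the recombinase was active under tamoxifen and by the sort gate. All 8 fibroblast marker genes had a promoter peak in each of the 10 ATAC libraries. Where no start site was listed, as for Dcn and Col1a1, a peak within 2 kb of either gene end was counted.

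Resident fibroblasts of the heart derive largely from the Tcf21 lineage and maintain the collagen network between the muscle cells. After an infarct they divide, migrate and become myofibroblasts, which secrete collagens, fibronectin, periostin and tenascin-C and contract through smooth muscle actin. Nucleosome-free DNA marks active promoters and enhancers. Enhancers often lie far from the gene they act on, so assigning a region to the nearest start site is a convention and not a measured link.

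Some promoters lay under gained regions beside genes whose RNA rose at day 3, and 3 are shown: those with a gained region over the start site and a match there to an IRF motif, chosen after the matches were seen. The start windows of Serpina3g and Laptm5 and a start window of Plac8 also overlapped gained regions and held no such match. Another start window of Plac8 had no peak in any of the lists. With equal peak numbers the Spp1, Oas1a and Serpina3g windows were again under a gained region, and the Clca3a1, Laptm5 and Plac8 windows were not. Each run is the 250 bases before the start site in RefSeq GRCm38.p6, written 5′ to 3′ on the gene's strand. Spp1 encodes the secreted matrix protein and cytokine osteopontin (chr5:104434861-104435110, plus strand). Oas1a encodes an interferon-induced oligoadenylate synthetase (chr5:120907526-120907775, minus strand). Clca3a1 encodes a member of the chloride channel accessory family (chr3:144760978-144761227, minus strand). Capitals mark matches to the interferon regulatory factor (IRF) motif (GAAA, any 2 bases, then GAAA), to the RUNX motif TGTGGTT and to the PU.1 motif GAGGAAGT, 3 of the 19 motifs searched, each on both strands.
Spp1: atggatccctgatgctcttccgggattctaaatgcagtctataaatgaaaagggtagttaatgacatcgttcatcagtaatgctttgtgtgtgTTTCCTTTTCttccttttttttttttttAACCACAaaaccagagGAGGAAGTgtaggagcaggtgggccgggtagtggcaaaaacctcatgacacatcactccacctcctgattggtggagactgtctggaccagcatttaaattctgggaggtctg
Oas1a: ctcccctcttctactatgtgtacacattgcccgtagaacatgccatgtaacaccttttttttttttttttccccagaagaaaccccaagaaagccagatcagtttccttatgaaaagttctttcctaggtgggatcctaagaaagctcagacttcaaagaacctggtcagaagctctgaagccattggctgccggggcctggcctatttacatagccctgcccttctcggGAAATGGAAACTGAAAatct
Clca3a1: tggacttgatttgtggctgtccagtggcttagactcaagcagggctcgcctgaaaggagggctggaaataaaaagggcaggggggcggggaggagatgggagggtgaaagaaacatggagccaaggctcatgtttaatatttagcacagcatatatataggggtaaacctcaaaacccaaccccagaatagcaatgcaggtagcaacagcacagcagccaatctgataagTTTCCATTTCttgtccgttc
The Spp1 promoter held all 3 motifs, at 157 to 148 (IRF), 129 to 123 (RUNX) and 113 to 106 (PU.1) bases before the start, with no overlap between them. Oas1a had a pair of overlapping IRF matches, 20 to 11 and 14 to 5 bases before the start. In Clca3a1 the IRF match lay 20 to 11 bases before the start. A match is a string of letters and not a measured binding site. Among all 21238 promoter windows of 300 bases, 3.34% held the IRF motif, 4.71% the RUNX motif and 3.13% the PU.1 motif.

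The 2 day 3 lists held 105695 and 107798 peaks, and the 2 uninjured lists held 63901 and 71909. They covered 153.6 and 173.7 Mb against 110.6 and 118.0 Mb. The day 3 lists also reached down to weaker peaks, with a lowest fold over background of 2.40 and 2.24 against 2.81 and 2.57 in the uninjured lists. No read counts came with the peak lists, so the depth behind them is unknown, and greater depth and more open chromatin at day 3 cannot be told apart from the list lengths. Library pairs overlapped to the same degree in both groups: 73.8% of the regions with a peak in either uninjured list had one in both, and the share was 73.7% at day 3.

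With equal numbers the ratio of gained to lost regions was 1.48, against 15.2 with whole lists. The lists of gained regions shared 8302 regions, 32.9% of the gained regions of the whole lists and 92.5% of those found with equal numbers. For lost regions the shared number was 1324, 80.0% of the whole-list set and 21.9% of the equal-number set. More regions were gained than lost under both rules, but the size of that excess depended on the number of peaks used. Gained regions were narrow, with a median width of 1017 bp. The median was 957.5 bp for lost regions and 2277 bp for regions with a peak in all 4 lists. At the edge of the rule, the weaker of the 2 day 3 peaks in a gained region had a median −log10 q of 5.96. Regions just outside had a peak in both day 3 lists and also in 1 uninjured list. The median −log10 q of that uninjured peak was 4.61 (2890 regions, first uninjured list) and 4.79 (7155 regions, second uninjured list). For lost regions the median of the weaker uninjured peak was 4.61. Just outside, the median of the day 3 peak was 4.40 (1189 regions, first day 3 list) and 4.03 (800 regions, second day 3 list).

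**Figure D1:**
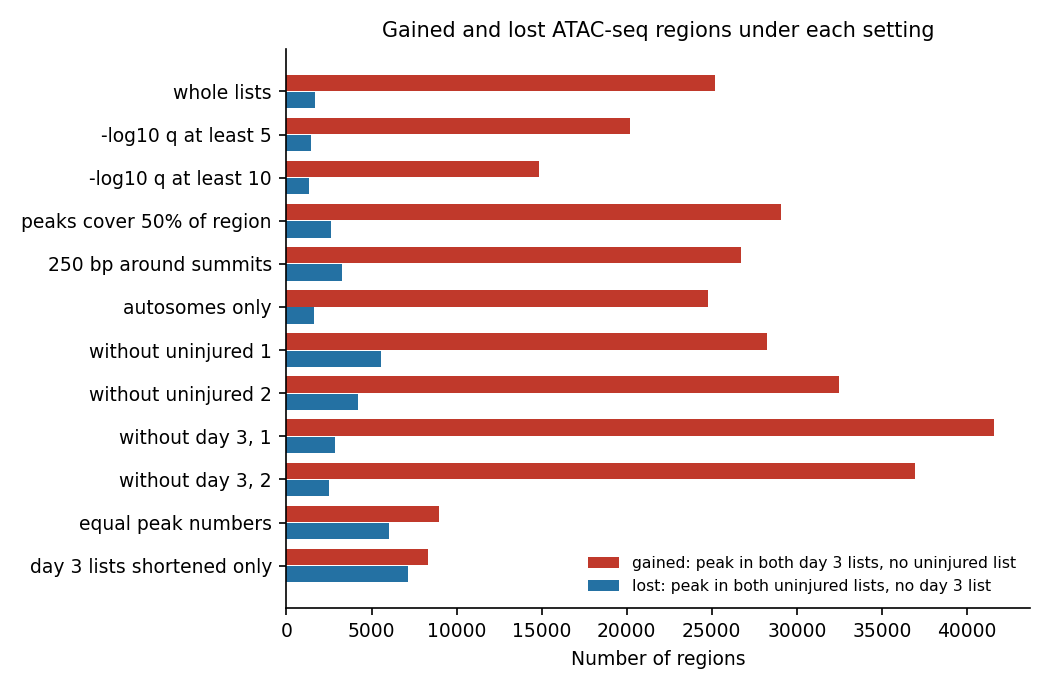
Number of regions gained and lost at day 3 under each way of calling them, from peak lists of 2 day 3 and 2 uninjured libraries. Gained regions number 25199 with whole lists and 8973 with equal peak numbers, while lost regions number 1654 and 6057.

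Gained and lost regions lay away from promoters. A promoter was the 2 kb on either side of a listed coding start site. Only 4.98% of gained regions (1255) and 1.57% of lost regions (26) were at one, against 21.3% of regions with a peak in all 4 lists and 11.1% of all regions. The shares were 5.74%, 1.80% and 24.7% with equal peak numbers. With windows of 250 bp around summits the order of gained and lost turned, at 4.89% and 6.87%. Gene bodies held 47.1% of gained and 51.6% of lost regions, and 45.4% and 44.8% were intergenic. The median distance to the nearest coding start site was 27119 bp for gained regions, 43304 bp for lost regions and 17836 bp for those in all 4 lists. A start site lay within 100 kb of 81.4% of gained and 69.0% of lost regions, and these were assigned to that gene.

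The lists of the later time points were not used in choosing the regions. Of the gained regions, 53.8% and 46.2% had a peak in the 2 libraries of day 7, 32.7% and 29.0% in those of week 2, and 18.2% and 17.9% in those of week 4. Both libraries of a later time point lay below both libraries of the time point before it. The later lists shortened in the same order, from 93724 and 88332 peaks at day 7 to 77947 and 79702 at week 2 and 69238 and 70195 at week 4. A lower share and a shorter list cannot be told apart here. Over all 123608 regions the shares moved less, from 63.6% and 56.3% at day 7 to 49.3% and 47.7% at week 4. Of regions with a peak in all 4 lists, 87.4% to 96.2% had a peak in each later library. No later library had a peak in 7793 gained regions (30.9%), and all 6 had one in 1819 (7.22%). With equal peak numbers, where later lists were used whole, the order was the same: 77.5% and 70.7% at day 7, 51.0% and 45.0% at week 2, and 27.6% and 26.8% at week 4.

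Stronger gained regions were found again more often. Gained regions were ranked within the day 3 lists by their weaker peak and divided into 3 groups of 8399 or 8400. In the weakest group 35.05% and 28.6% had a peak in the day 7 libraries, and in the strongest group 76.4% and 69.7%. At week 4 the same groups had 13.2% and 13.1%, and 25.7% and 25.1%. The strongest group therefore also had fewer regions with a peak at week 4 than at day 7.

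Lost regions followed no such order. Their shares were 25.998% and 9.98% at day 7, 26.8% and 31.6% at week 2, and 33.0% and 25.3% at week 4. The 2 day 7 libraries differed from each other by more than the later time points did. None of the 6 later libraries had a peak in 697 lost regions (42.1%). With equal peak numbers 46.4% to 55.1% had a peak in each library of weeks 2 and 4, and 57.5% and 31.9% did at day 7.

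**Figure D2:**
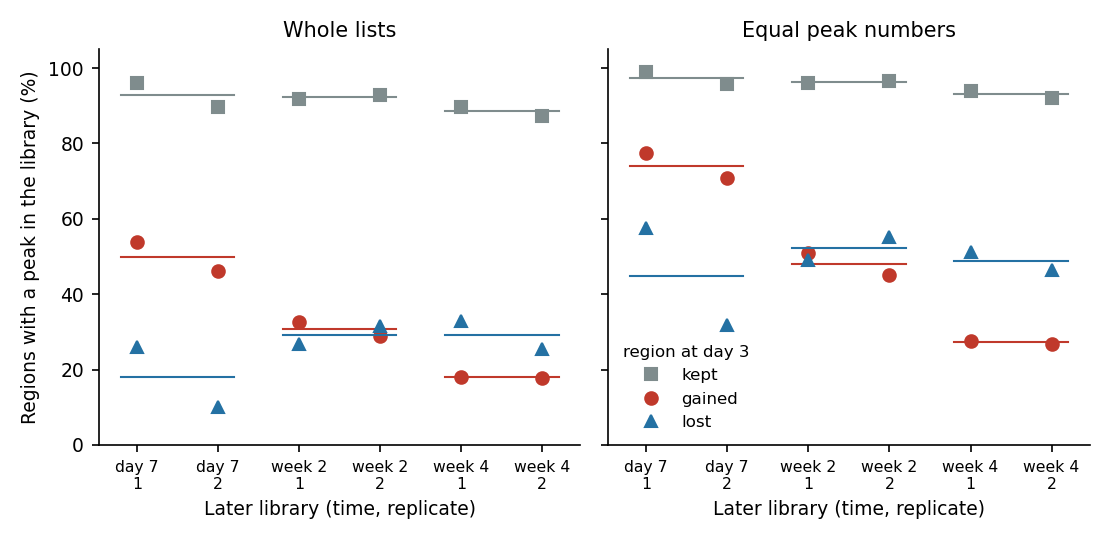
Percent of gained, lost and shared regions with a peak in each later library, at day 7, week 2 and week 4, with whole lists and with equal peak numbers; points are libraries and short lines the mean of 2 libraries. Gained regions go from 53.8% and 46.2% at day 7 to 18.2% and 17.9% at week 4, while regions with a peak in all 4 lists stay at 87.4% or more.

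The gained regions with the strongest peaks were found in most later libraries. A fold here is the authors' value for the peak over its background, and it ranks peaks only within a list. The leading region lay 96883 bp from the start of Thy1, a surface glycoprotein of fibroblasts (mm10/GRCm38 chr9:43944341-43946501), with folds of 35.03 and 37.3 in the 2 day 3 lists. Others lay in the gene body of Il34, a ligand of the CSF1 receptor (chr8:110792235-110795288, folds 33.3 and 31.8), and of the proteasome subunit gene Psma6 (chr12:55388796-55394315, folds 32.9 and 37.7). A further pair lay 8297 bp from Fem1a (chr17:56265090-56267171, folds 34.1 and 37.5) and in Map3k20 (chr2:72350665-72353129, folds 36.9 and 31.003). All 5 had a peak in all 6 later libraries, and one in Kirrel3, an adhesion gene, in 5 of 6 (chr9:34945567-34949052).

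Fewer later libraries had a peak in the leading lost regions. The first lay 34900 bp from Il12b, an interleukin subunit gene (chr11:44364014-44365163, uninjured folds 17.2 and 14.4), and had a peak in 1 of 6 later libraries. Regions in Efcab6 (chr15:83955646-83957201, folds 14.0 and 17.8), near Tprg (chr16:25224367-25225702, folds 10.9 and 9.78) and near Efcab14 (chr4:115701186-115702513, folds 10.6 and 12.6) had a peak in none. A region in Usp29 had one in 4 (chr7:6748696-6750621, folds 14.7 and 14.9). A region 3972 bp from Cyb5b had one in 1 (chr8:107146199-107146689, folds 10.6 and 11.3). These 6 lost and the 6 leading gained regions were also called with equal peak numbers.

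RNA of eGFP+ cells from the same groups was compared in parallel. The labels used here do not say whether RNA and ATAC libraries share mice or sorts. Levels are given as CPM (library-scaled counts), and changes as log2 fold changes with their standard error from edgeR's quasi-likelihood test. The p-values are Benjamini-Hochberg adjusted over 14968 genes. RNA libraries held 16397211 to 21043997 counts. In bulk RNA, fewer cells of a type and less RNA per cell cannot be told apart. Of the 14968 genes tested, 1106 rose (7.39%) and 658 fell (4.4%), 11.8% in either direction. Leaving out the second day 3 library brought these to 493 and 184. Without the first uninjured library they were 618 and 340, and without the second 471 and 277.

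Tnc, the gene of tenascin-C, a matrix glycoprotein of wounds, gained peaks over most of its body. It had 25 regions, of which 10 were gained and none lost, and 8 were gained with equal peak numbers. Merged regions over the gene were long: chr4:63952111-63973612 spanned 21502 bp and chr4:63998538-64015252 spanned 16715 bp. Its strongest gained peak lay upstream, 45212 bp from the start (chr4:64092227-64093743, folds 18.2 and 17.7). The promoter region itself had a peak in all 4 lists. Peaks covered 3.3% and 6.0% of the Tnc gene in the uninjured lists and 89.3% and 79.8% at day 3, or 84.2% and 69.5% with equal peak numbers. At day 7 cover was 22.6% and 14.6%, and at week 4 it was 8.3% and 7.9%, close to the uninjured level. Tnc RNA was 7.14 and 1.55 CPM in uninjured cells and 851 and 1228 CPM at day 3 (log2 fold change 7.90 ± 0.64, adjusted p = 0.00015).

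Runx1 encodes a transcription factor of blood and mesenchymal cells. It had 19 gained regions of 57 and no lost region, with 5 gained under equal numbers. All 3 of its promoter regions had a peak in all 4 lists. Cover of the gene was 8.5% and 7.4% in uninjured cells, 34.5% and 32.3% at day 3 (23.0% and 20.2% with equal peak numbers), and 39.9% and 40.9% at week 4. With whole lists its cover at week 4 was thus above that of day 3, unlike Tnc. Runx1 RNA was 18.1 and 7.5 CPM in uninjured cells and 72.8 and 69.6 CPM at day 3 (log2 fold change 2.47 ± 0.36, adjusted p = 0.0012).

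Arih1, a ubiquitin ligase gene, had the most lost regions of any gene with whole lists, 7 of 13, and none gained. With equal numbers it had 9, after Rtl1 with 13 and Serpine3 with 10. All 7 lay in the gene body, from chr9:59420375-59424234 to chr9:59475360-59478046, and all were lost with equal peak numbers too. Cover of the gene was 63.2% and 81.0% in uninjured cells, 17.9% and 13.2% at day 3, and 28.3% and 25.4% at week 4. Its RNA was 25.5 and 33.5 CPM in uninjured cells and 55.5 and 48.3 CPM at day 3, and was not called (log2 fold change 0.82 ± 0.37, adjusted p = 0.19). The direction of the RNA difference was thus opposite to that of the peak cover. Nop58, a small nucleolar ribonucleoprotein gene, had 5 lost regions of 9, and its cover was 73.3% and 68.5% in uninjured cells and 10.2% and 10.3% at day 3.

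**Figure D3:**
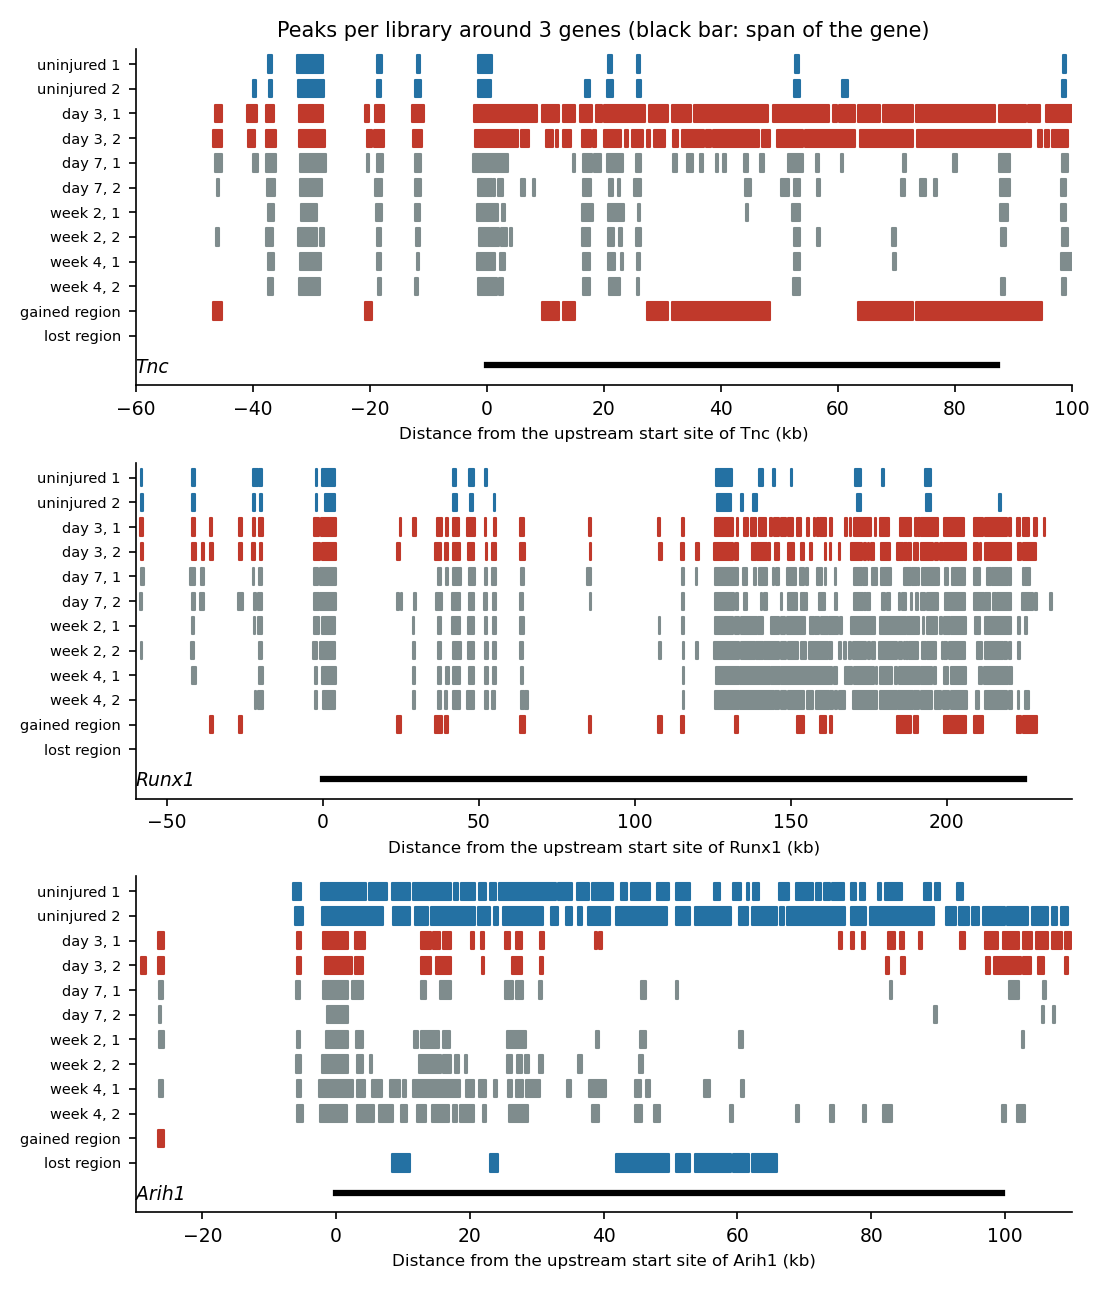
Peaks of all 10 ATAC libraries around Tnc, Runx1 and Arih1, with position in kb from the start site, the gene as a black bar, and the regions gained or lost at day 3 below. Peaks fill most of the Tnc gene in the 2 day 3 libraries (89.3% and 79.8%) and of the Arih1 gene in the 2 uninjured libraries (63.2% and 81.0%).

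The other genes with many gained regions were less uniform in RNA. Septin9, a cytoskeletal GTPase gene, had 14 gained of 48 regions and none lost, and 5 gained with equal numbers. Its RNA was 14.4 and 10.8 CPM in uninjured cells and 59.3 and 89.8 CPM at day 3 (log2 fold change 2.57 ± 0.35, adjusted p = 0.00082). The glutamate transporter gene Slc1a2 had 16 gained of 26, and Lpar3, a lysophosphatidic acid receptor gene, 13 of 20, with no Lpar3 count in any of the 4 RNA libraries. Trabd2b had 14 gained and 2 lost of 55, and Pappa, a metalloprotease gene, 13 gained and 1 lost of 35.

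Among genes with many lost regions, the chloride intracellular channel gene Clic4 had 6 lost and 2 gained of 21, and 6 lost and 1 gained with equal numbers. Its cover was 64.0% and 49.7% in uninjured cells and 26.2% and 30.7% at day 3. Clic4 RNA fell from 589 and 580 CPM to 300.5 and 292 CPM (log2 fold change −0.98 ± 0.19, adjusted p = 0.0063), a call that was lost without the second day 3 library. Serpine3, Ep400, Rtl1, Hipk3 and Dpy19l2 had 5 lost regions each. Rtl1, an imprinted retrotransposon-derived gene, had 13 lost and none gained under equal numbers.

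Cover of whole genes by peaks was then measured for all 13962 coding genes of at least 10 kb, a measure added after these maps had been seen. Both day 3 lists exceeded both uninjured lists by 20 percentage points or more in 115 genes (0.824%), and were lower by as much in 73 (0.523%). With equal peak numbers the counts were 51 (0.365%) and 124 (0.888%). Of the genes found under either rule, 49 of the higher and 71 of the lower were found under both. Leaving out a list can only keep or raise these counts, since the rule then has fewer lists to meet. Without the first day 3 list 344 genes were higher, and without the second uninjured list 199 were. Without the first uninjured list 119 genes were lower.

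Tnc and the following genes are examples of higher cover, picked after their values were seen. The hyaluronan receptor gene Cd44 had 10.4% and 8.9% cover in uninjured cells and 79.5% and 85.4% at day 3, with 37.8% and 45.6% at day 7. Its RNA rose, from 49.7 and 51.6 CPM to 205 and 229 CPM (log2 fold change 2.10 ± 0.21, adjusted p = 0.00015). Itga5, a subunit of the fibronectin receptor, went from 29.8% and 49.8% cover to 94.9% and 91.5%. Its RNA also rose (log2 fold change 1.87 ± 0.42, adjusted p = 0.014). The fibronectin gene Fn1 had 8.0% and 9.0% in uninjured cells and 41.5% and 56.8% at day 3, but 20.6% and 19.9% at day 3 with equal peak numbers. Higher cover did not always come with a called RNA change. Nfkb1, an NF-kB subunit gene, had 34.1% and 44.5% cover in uninjured cells and 94.4% and 85.7% at day 3, with a log2 fold change in RNA of −0.04 (adjusted p = 0.95). Developmental genes that were too low in RNA to test were among the leading genes too, such as the signalling gene Shh, at 0% in both uninjured lists and 46.6% and 42.5% at day 3.

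Examples of lower cover were picked in the same way. The splicing factor gene Srsf3 had 100% and 96.4% cover in uninjured cells, 33.8% and 46.7% at day 3, and 100% and 84.3% at week 4. The poly(A)-binding protein gene Pabpc1 had 92.5% and 100%, then 41.9% and 36.2%, and 100% and 80.1% at week 4. For Ctnnb1, which encodes β-catenin, the values were 92.4% and 96.6%, then 37.5% and 41.6%, and 98.6% and 83.7%. In these 3 genes the 2 week 4 lists were above both day 3 lists. Ripk1, a kinase gene of cell death signalling, went from 78.8% and 78.4% to 10.1% and 8.9%, with 41.2% and 30.3% at week 4. Of the 12 genes with the greatest loss of cover, the kinase gene Clk1 alone was called in RNA, where it fell (log2 fold change −0.77 ± 0.20, adjusted p = 0.026).

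Genes of fibrillar and large matrix proteins had gained regions more often than coding genes at large, and lost ones as well. Of 31 members, 23 had at least 1 gained region, where 42.7% of all coding genes had one, and 3 had a lost region, against 4.14% of coding genes. With equal peak numbers 17 had a gained region (21.9% of coding genes) and 16 a lost region (13.9%), 31 gained against 35 lost regions in all. In RNA 18 of 31 rose and 1 fell, with a median log2 fold change of 1.75, against 0 over all coding genes tested. Postn, which encodes periostin, had 12 gained of 32 regions and none lost, though with equal numbers it had 3 gained and 1 lost. Its RNA was 630 and 431 CPM in uninjured cells and 8279 and 7628 CPM at day 3 (log2 fold change 3.91 ± 0.34, adjusted p = 6.1e-05). Fn1 likewise had 12 gained of 31, or 2 with equal numbers. Col12a1 had 8 gained of 27. Lox, on another list of 18 collagen-processing genes of which 12 had a gained region (6 gained and 6 lost with equal numbers), had 7 of 9 and rose in RNA by 4.12 ± 0.31 on the log2 scale.

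Other matrix genes rose in RNA with few or no gained regions. All 5 regions of Col1a1, which encodes a chain of type I collagen, had a peak in all 4 lists, and its cover was 100% and 100% in uninjured cells and 95.5% and 100% at day 3. Its RNA rose by 2.90 ± 0.43 on the log2 scale. The single region of Cthrc1, a secreted protein of collagen-producing fibroblasts, was also in all 4 lists, while its RNA rose by 6.85 ± 0.34. Its folds were 9.05 and 8.75 in the uninjured lists and 34.5 and 33.0 at day 3. A peak in all 4 lists thus does not mean equal strength, although folds rank peaks only within a list. Col3a1, a further fibrillar collagen gene, had 12 of 16 regions in all 4 lists, 2 gained and 1 lost. Sparc, a collagen-binding protein gene, had 9 of 14 regions in all 4 lists, none gained and none lost, and rose by 1.71 ± 0.26. Of the 24 contractile and cytoskeletal genes, 15 had a gained and 3 a lost region, or 11 and 7 with equal numbers, and 12 rose in RNA with none falling. The shares of all coding genes were 42.7% and 4.14%, or 21.9% and 13.9% with equal numbers, and 7.92% of those tested rose. Tpm1, a tropomyosin gene, had 7 gained of 16 regions, the myosin gene Myh9 6 of 14, and Acta2, which encodes smooth muscle actin, 3 of 7. None of the Acta2 regions was gained with equal numbers.

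The genes that mark resident fibroblasts lost regions more often than coding genes at large. Of 27 members, 10 had a lost region and 14 a gained one, against 4.14% and 42.7% of coding genes. Under equal numbers 19 had a lost region and 9 a gained one, against 13.9% and 21.9% of coding genes. In RNA 17 fell and none rose, with a median log2 fold change of −2.54, where 4.68% of tested coding genes fell and 7.92% rose. Dcn, which encodes the proteoglycan decorin, had 3 lost and 5 gained of 27 regions, and 7 lost and 2 gained with equal numbers. The lost regions included a pair in the gene body, chr10:97504858-97506920 and chr10:97507680-97508586. Dcn RNA was 19803 and 24092 CPM in uninjured cells and 8756 and 5120 CPM at day 3 (log2 fold change −1.66 ± 0.29, adjusted p = 0.0032).

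Pdgfra, the platelet-derived growth factor receptor of fibroblasts, had 2 lost regions in its gene body, chr5:75189022-75191424 and chr5:75192738-75195401, and 5 gained ones. It had 5 lost and none gained with equal peak numbers. Its cover was 43.0% and 45.7% in uninjured cells and 29.8% and 30.5% at day 3. Pdgfra RNA fell from 731 and 779 CPM to 424 and 328 CPM (log2 fold change −1.01 ± 0.30, adjusted p = 0.047), a call that did not hold when any 1 of the 4 libraries was left out. Gsn, which encodes the actin-severing protein gelsolin, had 2 lost and 3 gained of 13 regions. Its RNA was 30111 and 28491 CPM in uninjured cells and 3643 and 1053 CPM at day 3 (log2 fold change −3.64 ± 0.56, adjusted p = 0.0030), a call that was lost without either uninjured library. Scara5, a scavenger receptor gene, had 3 lost and 1 gained of 29. Tcf21 itself, the lineage gene, had 1 gained, none lost and 8 of 15 regions in all 4 lists. Tcf21 RNA was 23.1 and 31.6 CPM against 10.7 and 7.82 CPM, which was not called (log2 fold change −1.56 ± 0.54, adjusted p = 0.086).

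Some markers fell in RNA with gained and no lost regions. Igfbp3, an insulin-like growth factor binding protein gene, had 3 gained of 7 regions, with a log2 fold change in RNA of −4.39 ± 0.67. Gpc3, a glypican gene, had 2 of 7 and a log2 fold change of −3.77 ± 0.38. Adh1, an alcohol dehydrogenase gene, had neither kind with whole lists and 2 lost regions with equal numbers, and its log2 fold change was −3.84 ± 0.73.

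On the lists of transcription factor genes more members had a gained region than an RNA call, as was so over all coding genes. Of all coding genes 42.7% had a gained region, while 7.92% of those tested rose and 4.68% fell. Of 27 genes of injury and mesenchymal transcription factors, 20 had a gained and 5 a lost region (42.7% and 4.14% of coding genes), while 2 rose and 1 fell in RNA. The counts were 13 gained and 12 lost with equal peak numbers. Beside Runx1, the TEAD family gene Tead1 rose, by 1.30 ± 0.30 on the log2 scale, with 3 gained of 37 regions. Runx3 had 14 gained of 35 and was not called in RNA. Meox1, a homeobox gene, had 14 of 17 regions in all 4 lists, 1 gained and 1 lost. Of 25 cardiac developmental factors, 20 had a gained and 6 a lost region, and 1 rose and 8 fell. Under equal numbers more of them had a lost region, 12, than a gained one, 10. Foxp1, a forkhead factor gene, had the most gained regions of any gene with whole lists, 22 of 68, and 11 with equal numbers. Its RNA was 115 and 127 CPM in uninjured cells and 193 and 203 CPM at day 3 (log2 fold change 0.71 ± 0.20, adjusted p = 0.041), a call that was lost on leaving out any 1 of the 4 libraries.

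Of 23 AP-1 and immediate early genes, 11 had a gained region (47.8%, against 42.7% of coding genes) and 4 a lost one (17.4%, against 4.14%). With equal numbers 9 had a gained and 5 a lost region, and in RNA 1 rose and 6 fell. Atf3, a stress-responsive factor gene, had 5 gained of 11 regions, and fell in RNA by 1.59 on the log2 scale, a call not held in every leave-one-out fit. The Jun gene had 1 gained, 1 lost and 6 of 12 regions in all 4 lists, and its RNA fell by 1.88 on the log2 scale. The single region of Fosl1 had a peak in all 4 lists, and Fosl1 rose by 4.42 ± 0.97, which was not called without the first uninjured library.

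In the TGF-β pathway, 21 of 27 genes had a gained region and 7 a lost one, against 42.7% and 4.14% of coding genes, while in RNA 1 rose and 4 fell. With equal numbers 17 had a gained and 15 a lost region. Ltbp1, which encodes a latent TGF-β binding protein, had 12 gained of 45 and no RNA call. The receptor gene Tgfbr1 had 3 gained and 5 lost of 41. Among 20 Wnt modulators, 19 had a gained region and 7 a lost one, or 13 and 10 with equal numbers, and 3 rose and 2 fell. The secreted Wnt antagonist gene Sfrp2 had 8 gained of 18 regions and rose by 2.55 on the log2 scale. Counts of this kind follow how many regions a gene has: these lists hold genes with many regions, so their shares are not matched to those of all coding genes.

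Of 28 cytokine, chemokine and receptor genes, 21 had a gained and 2 a lost region, or 15 and 7 with equal numbers, and 13 rose and 1 fell. Of all coding genes, 42.7% had a gained and 4.14% a lost region, or 21.9% and 13.9% with equal numbers. Of those tested in RNA, 7.92% rose and 4.68% fell. Spp1 had 6 gained of 8 regions, the promoter among them (chr5:104432817-104435595, folds 6.48 and 6.53), and 4 with equal numbers. Spp1 RNA was 33.6 and 22.03 CPM in uninjured cells and 1001 and 1690 CPM at day 3 (log2 fold change 5.60 ± 0.34, adjusted p = 3.1e-06). Il33, an alarmin gene, had 8 gained of 21 regions and rose by 1.13 ± 0.25. Ccl9, a chemokine gene, had no gained region, with 4 of 5 in all 4 lists, and rose by 7.94 ± 0.57. Of 18 interferon-stimulated genes 6 had a gained region (33.3%, below the 42.7% of coding genes) and none a lost one, and 9 rose. With equal numbers the order turned, with 2 gained and 4 lost. Of 30 cell cycle genes 10 had a gained and 1 a lost region, or 6 and 2 with equal numbers, while 16 rose and none fell. Their shares were below those of all coding genes, at 33.3% gained and 3.33% lost, or 20% and 6.67% with equal numbers.

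Markers of other cell types moved with the day 3 group. Promoter peaks were found in 3 and 4 of 20 macrophage genes in the uninjured lists, 7 and 13 at day 3, and 13 and 19 at day 7. With equal numbers the counts were 3 and 4 against 5 and 7. All coding genes had more promoter peaks at day 3 too, in 14021 and 14243 of 21887 genes against 15442 and 15625. With equal numbers these were 14021 and 14094 against 14585 and 14721. Macrophage genes summed to 86.4 and 96.1 CPM in uninjured cells and 874 and 1453 CPM at day 3. Of these 20 genes 15 rose, against 7.92% of tested coding genes. Of the macrophage genes, 12 had a gained region and none a lost one, or 6 and none with equal numbers. Their gained shares were 60% and 30%, against 42.7% and 21.9% of coding genes. Csf1r, Lyz2 and Laptm5 had a promoter peak in both day 3 lists and in neither uninjured list. The Laptm5 peak of the first day 3 list had a fold of 2.40, the lowest of that list. The lowest folds of the uninjured lists were 2.81 and 2.57. As for the fibroblast genes, either gene end was used where no start site was listed, which was the case for Csf1r. The merged region at that Csf1r gene end also held a peak of the first uninjured list (fold 5.31). Ptprc, Adgre1, Itgam, Mrc1, Cd163, C1qb and Trem2 had none in any of the 4 lists, and Cd68, Cd14 and Spi1 had one in all 4. Epicardial genes had promoter peaks in 1 and 1 of 6 against 5 and 6 at day 3, or 1 and 1 against 3 and 4 with equal numbers. Their summed RNA was 7.46 and 5.52 CPM against 5.64 and 25.4 CPM. All 6 epicardial genes had a gained region (3 with equal numbers), among them Wt1 with 7 of 13, none of which was gained with equal numbers.

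Endothelial genes ran the other way in RNA, at 554 and 416 CPM in uninjured cells and 194 and 127 CPM at day 3. Of the 12 genes 6 fell, against 4.68% of tested coding genes. Yet 10 of 12 had a gained region, or 7 with equal numbers, against 42.7% and 21.9% of coding genes. The vascular growth factor receptor gene Flt1 had 8 gained of 15 regions. Endothelial promoter peaks numbered 8 and 9 against 10 and 9, or 8 and 9 against 9 and 8 with equal numbers. Pericyte genes had promoter peaks in 8 and 9 of 9 against 9 and 9, and summed to 941 and 435 CPM against 263 and 177 CPM. Cardiomyocyte genes had promoter peaks in 4 and 4 of 12 against 8 and 6, or 4 and 3 against 5 and 5 with equal numbers. They summed to 129 and 169 CPM against 57.4 and 28.8 CPM. Neutrophil genes summed to 0.0533 and 0.161 CPM in uninjured cells and 4.69 and 7.21 CPM at day 3. The 8 fibroblast genes summed to 61893 and 63319 CPM against 37981 and 23546 CPM. The part of other cell types in the gained regions, and in the RNA beside them, was not tested.

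**Figure D4:**
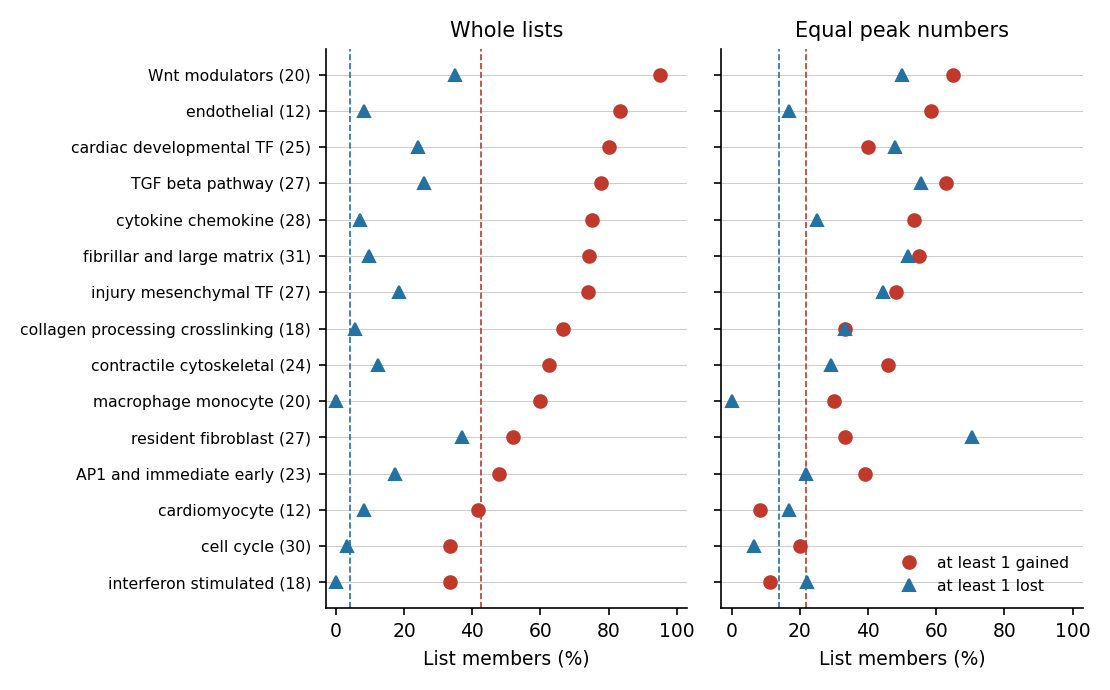
Percent of the members of each gene list of 12 or more genes with at least 1 gained or lost region, with whole lists and with equal peak numbers; dashed lines give all coding genes (42.7% gained and 4.14% lost with whole lists). With whole lists, matrix genes lie above the dashed line for gained regions (23 of 31), cell cycle genes below it (10 of 30), and resident fibroblast genes lie above the line for lost regions (10 of 27).

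Over all coding genes, genes with a gained region rose about as often as other genes. Of 7073 tested genes with at least 1 gained region, 528 rose (7.46%) and 406 fell (5.74%), against 7.92% and 4.68% of the 13866 coding genes tested. Genes without one rose in 8.39% and fell in 3.58% of cases. Over all tested genes the share did not climb steadily with the number of gained regions. Genes with 3 to 4 rose in 7.54% and fell in 6.72% of cases, and those with 5 to 9 in 8.27% and 7.52%. Of the 63 with 10 or more, 13 rose (20.6%) and 1 fell (1.59%). Under equal numbers, 49 of 438 genes with 3 or more rose (11.2%) and 30 fell (6.85%). Counting only regions over the gene itself, genes with 3 or more rose in 5.47% and fell in 6.75% of cases. Among genes spanning 20 to 100 kb, those with 3 or more rose in 7.47% and fell in 3.61%. Those with 1 to 2 did so in 5.47% and 4.26%, and those with 0 in 6.35% and 4.96%. Among genes with 8 to 15 regions of any kind, 5.34% rose and 9.86% fell with 0 to 1 gained. The shares were 6.95% and 4.86% with 2 to 3 gained, and 7.52% and 4.95% with 4 or more. Of 601 genes with a gained region at the promoter, 49 rose (8.15%) and 14 fell (2.33%). Among genes that rose, 48.1% had a gained region, and among those that fell 62.6% did.

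Lost regions were more often beside genes that fell. Of 756 tested genes with a lost region, 97 fell (12.8%) and 50 rose (6.61%), with a median log2 fold change of −0.39. Of the 143 with 2 or more, 25 fell (17.5%). With equal numbers, 56 of 288 genes with 3 or more lost regions fell (19.4%) and 3.82% rose. The share that fell was smaller in genes with a lost and no gained region, at 6.83% (17 genes). Leaving out the second day 3 RNA library lowered the share of genes with a lost region that fell to 3.21%, where 1.26% of all coding genes fell. Without the first or second uninjured RNA library fewer genes were called in all. The median log2 fold change of genes with a lost region was then −0.37 and −0.34, against 0.016 and 0 over all coding genes. None of the 18 tested genes with a lost region at the promoter fell, and 2 rose. Of all genes that fell, 14.9% had a lost region, as did 4.55% of genes that rose.

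Genes with higher cover of the gene body at day 3 rose more often than other genes. Of 10477 tested genes of at least 10 kb, 6.43% rose and 4.91% fell. Among the 81 with cover higher by 20 points or more, 15 rose (18.5%) and 1 fell. With equal numbers 8 of 36 rose (22.2%) and none fell. Of 64 genes with cover lower by 10 to 20 points, 15 fell (23.4%), yet of the 71 with cover lower by 20 points or more, 8 rose (11.3%) and 6 fell (8.45%). With equal numbers the balance turned, as 10 of 121 rose (8.26%) and 15 fell (12.4%).

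**Figure D5:**
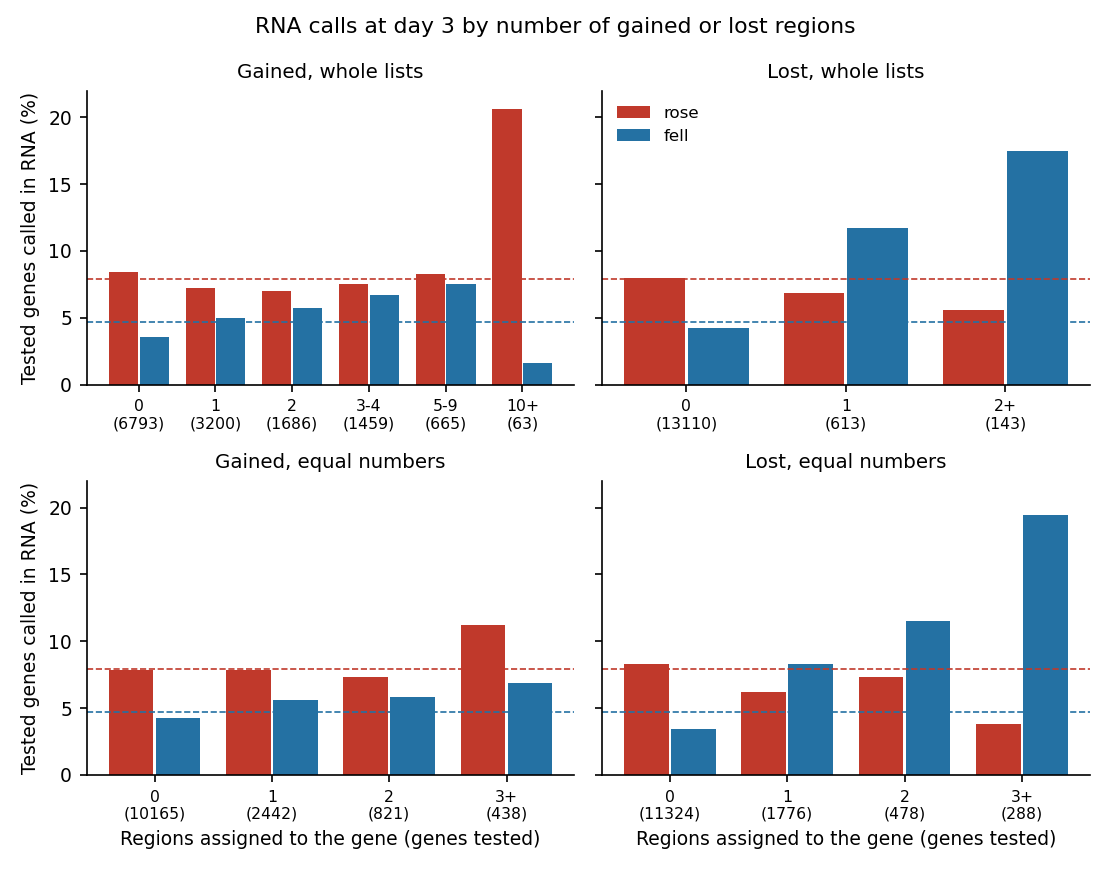
Percent of tested genes that rose or fell in RNA at day 3 by the number of gained or lost regions assigned to them, with the number of genes tested in brackets and dashed lines for all coding genes (7.92% rose, 4.68% fell). Of the 63 genes with 10 or more gained regions 20.6% rose, and of the 143 genes with 2 or more lost regions 17.5% fell.

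The genes with a gained promoter region that rose most in RNA were the serine protease inhibitor gene Serpina3g (log2 fold change 6.94), Clca3a1 (6.08), the galectin gene Lgals3 (5.93), Laptm5 (5.61), Spp1 (5.60), Plac8 (5.44), Oas1a (5.22) and the cathepsin gene Ctss (4.71). Laptm5 and Ctss are also on the list of macrophage genes. Serpina3g and Oas1a belong to families of near-identical genes, so their counts are uncertain. The calls of Serpina3g, Clca3a1 and Laptm5 were lost without the second day 3 library, that of Serpina3g also without either uninjured library and that of Clca3a1 also without the first day 3 library. The gained region of Oas1a covered the start site, with folds of 12.5 and 11.4 in the day 3 lists. That of Lgals3 lay 1518 bp from the start (folds 18.7 and 17.5), and the region over the Lgals3 start site had a peak in all 4 lists. The folds of that start region were 8.11 and 6.69 in the uninjured lists and 36.9 and 28.6 at day 3.

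Promoters with a gained region lay between the other groups in base composition. The 723 windows of 300 bases around their start sites (660 genes) had a median of 9 CpG dinucleotides and a GC content of 57%. Windows with a peak in all 4 lists (12902) had 21 and 61.7%, and those without a peak in the 4 lists (6947) had 3 and 46.3%. The RUNX motif was found in 5.67% of gained windows, 3.15% of those in all 4 lists and 7.36% of those without a peak. For PU.1 the shares were 3.46%, 2.61% and 3.93% (2.22%, 2.62% and 4.01% with equal peak numbers, where gained windows were below those in all 4 lists), and for IRF 2.90%, 2.91% and 4.16%. These shares moved with CpG content. Among windows with an observed to expected CpG ratio of at most 0.4 (342 gained, 1685 in all 4 lists, 5960 without a peak), RUNX was in 8.77%, 5.22% and 7.87%, PU.1 in 6.14%, 4.10% and 4.23%, and IRF in 4.68%, 6.11% and 4.41%. The order of the 3 classes thus depended on the motif and on the windows compared.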

How the data were processed

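ATAC-seq peak lists and an RNA count table of sorted mouse cardiac fibroblasts were used as deposited by the authors. Per the submitters' processing notes the tools were Trim Galore 0.6, FastQC, Bowtie2 2.3, MACS2, STAR 2.5.3a and DESeq2, and the builds mm10 and GRCm38. What each was used for is not given in the sources used here. Peak lists hold, per library and as deposited by the authors, a fold over background (a ratio), a −log10 p, a −log10 q and a score for each peak. The RNA table holds expected counts as deposited by the authors, which were rounded to whole numbers before testing.

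Peaks on the 19 autosomes and on X and Y were merged where they overlapped by at least 1 bp. Equal-number lists held the 63901 peaks of highest −log10 p per list. Regions were assigned to the nearest coding start site within 100 kb. Sites came from RefSeq GRCm38.p6 (21263 sites of 17492 genes), and for 4395 coding genes without a listed site both gene ends were used, a step that was not in the planned design. Peaks have no replicate test: 2 against 2 libraries cannot go below an exact p of 0.333, so calls rest on presence in both libraries of a group. RNA was fitted over all 10 libraries (edgeR 4.0.16 in R 4.3.3, quasi-likelihood, TMM, 5 residual degrees of freedom), with a call at an adjusted p under 0.05. A table of 25746 genes gave 14968 after the filter on low counts, and 7472 genes had no counts. Symbols or identifiers matched 20895 of 21887 coding genes. The code was tested on simulated data.

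Genes named in the text were a fixed set of fibroblast and injury genes, those with the most gained or lost regions, the leading regions by peak strength, those gained at the promoter that rose most, and leading members of each list. Genes named for cover of the gene span, and for lack of change on a list, were chosen after their values were seen. The members and all gene lists were chosen with earlier results of these data known. Alternatives used other peak thresholds, summit windows, overlap rules, assignment distances, DESeq2 1.42.0, no count filter, a replicate block and each library left out.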

Additional observations from a re-analysis of the deposited data

How the results depend on the processing

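The replicate numbers did not pair the RNA samples (correlations of −0.018 to 0.029), and a replicate block called 1108 genes higher and 676 lower. Gained regions numbered 8973 with equal peak numbers, 8305 with only the day 3 lists shortened, 14844 at a −log10 q of at least 10, 10341 with equal numbers of summit windows of 250 bp (added after seeing the data), and 28256 to 41612 with a library left out. Lost regions numbered 6057, 7165 with only the day 3 lists shortened, 2606 where peaks had to cover 50% of the region, 3244 with summit windows, 7175 with equal numbers of them, and 2507 to 5552 with a library left out. Taking replicate block pair 1 alone gave 43150 gained and 5304 lost, and pair 2 alone 44314 and 7660. Gained regions at promoters made up 5.74% with equal numbers, 3.39% with a window of 1 kb (lost regions 0.484%) and 4.67% to 5.00% with a library left out. With summit windows 4.89% of gained and 6.87% of lost regions were at promoters, and 6.13% and 4% with equal numbers of them. With equal numbers, both libraries of day 7, week 2 and week 4 had a peak in 63.6%, 36.8% and 17.7% of gained and in 27.5%, 39.6% and 36.6% of lost regions.

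In RNA, 471 to 873 genes were higher and 184 to 831 lower with a library left out. DESeq2 called 1600 higher and 1256 lower, and without a count filter the numbers were 1288 and 1261. The share of genes next to gained regions that rose was 8.72% within 10 kb, 8.15% at promoters, 8.13% with equal numbers, 5.84% for regions over the gene itself, 11.2% with DESeq2 (12.1% of all coding genes), 8.57% in a fit of 4 libraries and 3.18% to 7.63% with a library left out. The share next to lost regions that fell was 0% at promoters, 10.2% with equal numbers, 20.2% with DESeq2 (9.26% of all coding genes), 18.6% without a count filter and 3.21% to 13.5% with a library left out. Over all coding genes 9.19% rose in the fit of 4 libraries and 7.62% fell without a count filter. Both ranges with a library left out join RNA and ATAC libraries. With an ATAC library left out they were 7.41% to 7.63% and 10.0% to 12.5%. The lowest shares came from RNA fits in which fewer of all coding genes were called too. With an RNA library left out, the median log2 fold change next to lost regions was −0.53 to −0.34. Over all coding genes it was −0.08 to 0.016. Higher cover of the gene span held for 51 genes with equal numbers and for 149 to 344 with a library left out, and lower cover for 124 and for 90 to 119. With an ATAC library left out, the rules for gained regions, lost regions and cover had fewer lists to meet. The counts of cover could then only stay or rise. The cause of the other shifts was not tested.

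Of 54 named genes called in RNA, 32 were called under every alternative and none changed sign. Leaving out 1 library also ended the calls of Clic4, Efcab14, Il34, Psma6, Thy1, Tpm1, Il33, Tgfbr3 and Ebf2. The planned motif search within peaks was not run because no genome sequence was used here. Peak lists carry no read counts, so depth limits what the absence of a peak can show.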
